A study of Mus musculus with 6 samples.

Results

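The cytosolic and mitochondrial heat shock chaperones described here are 10 genes, Hspa1a, Hspa1b, Hspa8, Hsph1, Dnaja1, Dnajb1, Hspb1, Hsp90aa1, Hspd1 and Hspe1, chosen by name out of 23402 gene symbols in the deposited table. RNA was sequenced from intestinal tissue labelled terminal ileum, 1 library per mouse, in 6 mice aged 6 weeks that had taken dextran sodium sulfate (DSS), an agent that injures the gut epithelium, in drinking water until day 6. All 6 mice carried floxed Il17ra alleles (Il17rafl/fl), so that this subunit of the interleukin-17 receptor can be deleted where Cre recombinase is active. In 3 mice, called Cre-positive below (labelled KO; Il17rafl/fl;Atoh1-cre+), Cre was driven by Atoh1, a transcription factor gene of the secretory epithelial lineage. The other 3, called Cre-negative (labelled WT; Il17rafl/fl;Atoh1-cre-), were littermates without Cre. The comparison asks how loss of the receptor in that lineage alters the tissue's transcripts during DSS exposure. Mice without DSS and mice with Cre but without floxed alleles were not analysed here, and the DSS dose and the sex of the mice are not stated in the labels. Because Cre acts in a minority lineage of a whole tissue, a change confined to it would be diluted by the other cells, and fewer cells of a type and less RNA per cell cannot be told apart in such samples.

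Heat shock proteins are chaperones that hold, fold or disassemble other proteins. HSP70 proteins bind exposed stretches of a client and release them in a cycle driven by ATP, which J proteins start and nucleotide exchange factors complete. HSP90 acts later on many signalling proteins, small heat shock proteins hold unfolded clients without ATP, and the HSP60 and HSP10 chaperonin folds proteins inside mitochondria. Heat and other proteotoxic stress activate the transcription factor HSF1, which binds repeated GAA units, alternating in orientation, in the promoters of many of these genes. In the gut, inducible HSP70 and the small heat shock protein encoded by Hspb1 are known as cytoprotective proteins of the epithelium.

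The promoters of these genes are shown because the repeated GAA unit is the feature through which HSF1 is known to act on them. Windows from 250 bases before to 50 after a gene start (RefSeq, GRCm38.p6) were held for 8 of the 10 genes, and Hspa8 and Hsp90aa1 had none. Capitals mark GAA and TTC units that face each other across any pair of bases, searched as GAANNTTC and TTCNNGAA, each of which reads the same on both strands. Hspa1a and Hspa1b are intronless neighbours on the minus strand of chromosome 17, from 34969190 to 34972156 and from 34956436 to 34959238 (GRCm38, GENCODE M21), with gene starts 12918 bases apart. Their windows, chr17:34972107-34972406 and chr17:34959189-34959488 (minus strand), differed at 4 of 300 bases.
Hspa1a: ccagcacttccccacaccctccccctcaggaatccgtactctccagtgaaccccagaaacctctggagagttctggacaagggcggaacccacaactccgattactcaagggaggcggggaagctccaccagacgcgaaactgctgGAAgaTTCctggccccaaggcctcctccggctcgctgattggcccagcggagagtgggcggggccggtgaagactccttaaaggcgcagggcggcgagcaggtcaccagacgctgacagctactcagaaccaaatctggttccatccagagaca
Hspa1b: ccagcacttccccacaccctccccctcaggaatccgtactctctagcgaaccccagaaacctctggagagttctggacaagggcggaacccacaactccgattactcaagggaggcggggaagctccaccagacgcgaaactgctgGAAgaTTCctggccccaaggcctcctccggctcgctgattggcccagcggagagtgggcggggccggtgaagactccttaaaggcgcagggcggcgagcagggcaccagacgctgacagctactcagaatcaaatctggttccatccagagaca
Counted from the 5′ end of the printed windows, with the base of Hspa1a first, the differences were C44T, T47C, T249G and C276T. None of them lay in the marked units, which began 104 bases before both gene starts. The coding sequences were as close, with 99.4% identical positions over 1926 aligned bases. Of all 75-base stretches of the annotated Hspa1a transcript, 52.7% also occurred in that of Hspa1b. A fragment whose sequenced bases all lie within such a stretch cannot be assigned to either gene by them, so the split between the rows is uncertain.

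The other windows with a match are shown around it. Hspb1 lies on the plus strand of chromosome 5 (135887919 to 135889563) and its printed stretch is chr5:135887777-135887854. Dnaja1 lies on the plus strand of chromosome 4 (40722150 to 40737149; stretch chr4:40722319-40722376). Hsph1 lies on the minus strand of chromosome 5 (149614287 to 149636376; stretch chr5:149636287-149636394). Hspe1 lies on the plus strand of chromosome 1 (55088132 to 55091307), head to head with Hspd1 on the minus strand (55077835 to 55088243), with gene starts 111 bases apart, so that the genes share 112 bases. RefSeq gives Hspd1 a second start at 55087932, inside the gene as GENCODE has it. The stretch chr1:55088034-55088101 lies before the Hspe1 start and before this second start of Hspd1, and is printed on the strand of Hspe1. The window of the outer Hspd1 start held no match.
Hspb1: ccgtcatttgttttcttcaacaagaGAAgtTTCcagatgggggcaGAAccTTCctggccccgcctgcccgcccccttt
Dnaja1: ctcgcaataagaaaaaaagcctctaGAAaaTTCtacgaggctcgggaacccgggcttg
Hsph1: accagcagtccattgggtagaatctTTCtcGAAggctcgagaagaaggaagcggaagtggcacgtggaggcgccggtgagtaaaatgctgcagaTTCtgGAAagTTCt
Hspe1: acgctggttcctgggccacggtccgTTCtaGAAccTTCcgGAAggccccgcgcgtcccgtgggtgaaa
A match was found for 7 of the 8 genes, in 8 of their 13 windows, and in 15.1% of 32851 windows of all genes. The longer motifs of 3 alternating units, GAANNTTCNNGAA and its reverse complement TTCNNGAANNTTC, which contain the shorter ones, were found for Hsph1, Hspd1 and Hspe1, the latter pair through the same bases, and in 0.603% of all windows. Dnajb1, on chromosome 8 from 83608193 to 83612653, had no match in its windows. A match is a description of letters in a window and was not tested as a binding site.

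Facts of the libraries that bear on these genes come first. From the spacing of low values, the libraries were estimated to hold between 8220000 and 9680000 fragments. The interleukin-17 receptor gene itself, Il17ra, stood at 5.91 to 6.53 FPKM (fragments per kilobase of transcript, scaled to depth) in the Cre-negative and 6.07 to 8.36 FPKM in the Cre-positive libraries, so it did not check the labels in this whole tissue. Epithelial markers summed to between 5230 and 6507 FPKM and smooth muscle markers to between 570 and 891 FPKM. Of markers chosen after the values were seen, those that define the distal ileum were at or near 0 in most libraries: Fabp6, a bile acid binding protein, was listed at 0.316 to 9.79 FPKM, the bile acid transporter gene Slc10a2 at 0.0669 to 1.94 FPKM and Fgf15 at 0.139 to 7.70 FPKM. Gata4, a transcription factor of the more proximal small intestine, stood at 37.1 to 49.3 FPKM. These markers therefore did not bear out the distal ileal label, and all 3 distal genes were highest in Cre-negative 3. B cell markers summed to 89.4 and 111 FPKM in Cre-positive 1 and 2 and to at most 19.4 FPKM in the other libraries. Xist, the RNA of the inactive X chromosome, was at 148 to 177 FPKM in Cre-negative 3 and Cre-positive 2 and 3, and at no more than 0.194 FPKM in the other 3, while the labels give no sex. Ddx3y, a gene of the Y chromosome, stood at 14.5 to 15.3 FPKM in those other 3. It was at no more than 0.048 FPKM in the libraries with high Xist. By these 2 genes the high-Xist libraries came from females and the others from males, so sex was not balanced between the groups.

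FPKM values are per length, so levels can be compared between genes. Hspa8, which encodes the constitutive cytosolic HSP70 (HSC70), had the highest level, with a mean of 685 FPKM over the 6 libraries, and its range did not meet that of any other member. Hspd1 (139 FPKM), Hsp90aa1 (105 FPKM) and Hspe1 (99.7 FPKM) followed with overlapping ranges, and all 6 values of Hspe1 lay above all those of Hsph1 (45.2 FPKM). Further down, each gene's range overlapped the next, through Dnaja1 (24.5 FPKM), Dnajb1 (21.7 FPKM), Hspb1 (14.01 FPKM) and Hspa1b (7.71 FPKM) to Hspa1a (2.84 FPKM). Hspa8 made up between 58.5% and 61.7% of the summed FPKM of the set in every library, whereas the inducible Hspa1a and Hspa1b together made up between 0.263% and 2.57%.

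No member was found to differ between the groups beyond the spread of the animals. In the fit of the 12695 genes whose mean was 1 FPKM or more, 0 reached an adjusted p of 0.05 by limma (0.0%), and 459 had an unadjusted p under 0.05 (3.62%). All 10 members passed the filter, and 0 of them had an unadjusted p under 0.05 (lowest 0.0968, for Hspb1). Every member had a limma adjusted p of 0.998, and the groups overlapped for all 10. Over all genes, the groups did not overlap for 8.37% in either direction, and for 2.6% with all Cre-positive libraries below all Cre-negative ones. The estimates of 8 members were below 0, against 41.6% of all genes, with a median log2 fold change of -0.27 on the log2(FPKM + 1) scale, against 0.03 over all genes. The size of this median depended on single libraries, and its sign on the weighting: leaving out Cre-negative 3 or Cre-positive 1 brought the median to -0.07 or -0.08, leaving out Cre-negative 2 or Cre-positive 2 brought it to -0.44 or -0.45, and only array weights turned it positive among the alternatives run, to 0.19. By scaling, 10 members were below 0 with median-of-ratios scaling and 7 after rescaling to an equal sum, which itself moved the median of all genes from 0.03 to 0.13.

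**Figure D1:**
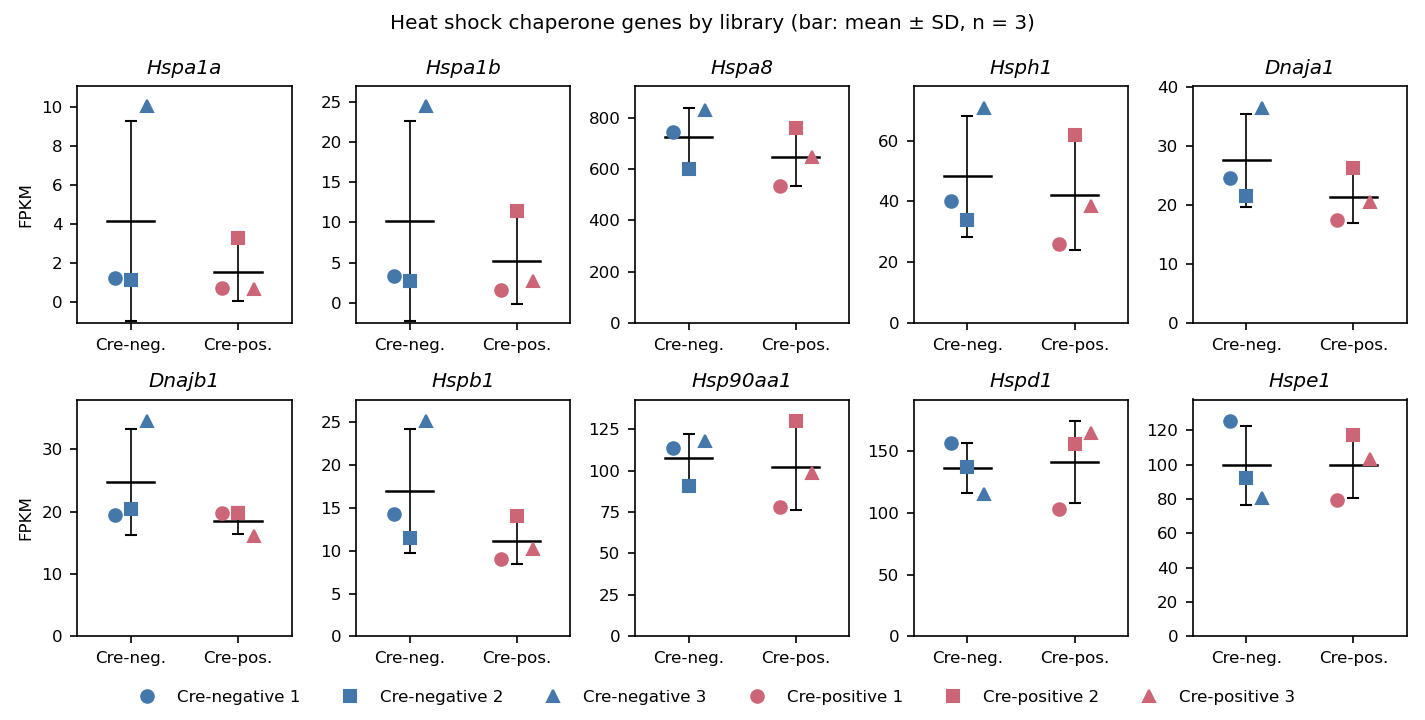
Level of each of the 10 genes (y axis, FPKM, each panel on its own linear scale) in the 3 Cre-negative and 3 Cre-positive libraries, with bars for the mean ± SD (n = 3). Symbols mark the replicate number. In 7 panels the highest point is Cre-negative 3, and the groups overlap in all 10.

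The inducible HSP70 genes showed the widest range between animals. Hspa1b stood at 3.30, 2.67 and 24.5 FPKM in Cre-negative 1, 2 and 3 and at 1.57, 11.5 and 2.72 FPKM in Cre-positive 1, 2 and 3. Cre-negative 3 was therefore the highest library and Cre-positive 2 the next, and the other 4 lay within a narrow band below them. The highest value was 15.6 times the lowest, with 9.18-fold between animals of the Cre-negative group alone and 7.29-fold within the Cre-positive group. The group means were 10.2 ± 12.4 FPKM and 5.25 ± 5.41 FPKM (SD, n = 3 each), and the log2 fold change was -0.59 (SE 0.82, 95% interval -2.48 to 1.31; exact two-sided permutation p = 0.6, where 0.1 is the smallest possible).

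Hspa1a, the second copy of the inducible gene, followed the same pattern at a lower level. It stood at 1.22, 1.13 and 10.05 FPKM in the Cre-negative and at 0.715, 3.27 and 0.649 FPKM in the Cre-positive libraries. Again Cre-negative 3 was highest and Cre-positive 2 next. The log2 fold change was -0.70 (SE 0.66, 95% interval -2.23 to 0.82). The lowest value, in Cre-positive 3, rested on about 16 fragments and the highest on about 265. The sum of both copies, in which a different split of fragments between them largely cancels, was 4.52, 3.80 and 34.6 FPKM in the Cre-negative and 2.29, 14.7 and 3.36 FPKM in the Cre-positive libraries. Its log2 fold change was -0.69 (SE 0.84).

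Without Cre-negative 3 the estimates of both copies turned positive, to 0.08 for Hspa1a and 0.31 for Hspa1b, and without Cre-positive 2 they were -1.15 and -1.26. The within-group SD of Hspa1b, 1.38 on the log2(FPKM + 1) scale, lay at the 99.7th percentile of the 12695 genes, and that of Hspa1a, 1.104, at the 99.5th percentile. The median gene had a within-group SD of 0.16. The 95% interval of Hspa1a reached further below 0 than above it, to -2.23 and 0.82 on the log2 scale, and that of Hspa1b to -2.48 and 1.31.

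The constitutive gene Hspa8 kept a far narrower range under the same conditions. Its values were 743, 599 and 829 FPKM in the Cre-negative and 533, 760 and 645 FPKM in the Cre-positive libraries. The order of the libraries was the same as for Hspa1b, with Cre-negative 3 highest and Cre-positive 1 lowest, but the highest was only 1.55 times the lowest. The log2 fold change was -0.17 (SE 0.19). It ranged from -0.30 without Cre-negative 2 to -0.03 without Cre-positive 1. The ratio of Hspa8 to Hspa1b accordingly ran from 33.8 in Cre-negative 3 and 66.3 in Cre-positive 2 to between 224 and 339 in the other 4 libraries.

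Hsph1 encodes the HSP110 protein, which exchanges the nucleotide of HSP70. It stood at 40.1, 33.8 and 70.9 FPKM in the Cre-negative and at 26.1, 62.0 and 38.4 FPKM in the Cre-positive libraries. The same 2 libraries were again the highest, with a gap between them and the other 4. The log2 fold change was -0.21 (SE 0.35), and leaving out Cre-negative 3 or Cre-positive 1 turned it to 0.10 or 0.09.

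The J proteins, which start the ATPase cycle of HSP70, differed from each other in their order of libraries. Dnaja1 stood at 24.6, 21.6 and 36.5 FPKM in the Cre-negative and at 17.4, 26.2 and 20.5 FPKM in the Cre-positive libraries, with Cre-negative 3 and Cre-positive 2 highest as above (log2 fold change -0.34, SE 0.21, and -0.12 without Cre-negative 3). Dnajb1, the main stress-inducible J protein gene, stood at 19.4, 20.5 and 34.6 FPKM in the Cre-negative and at 19.8, 19.8 and 16.0 FPKM in the Cre-positive libraries. For Dnajb1 only Cre-negative 3 stood out, and Cre-positive 2 lay among the other libraries. The log2 fold change of Dnajb1 was -0.36 (SE 0.21), and it was -0.10 without Cre-negative 3.

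Hspb1, whose small heat shock protein binds unfolded clients and actin filaments, had the lowest unadjusted p of the set. It stood at 14.2, 11.4 and 25.1 FPKM in the Cre-negative and at 9.04, 14.01 and 10.2 FPKM in the Cre-positive libraries. Cre-negative 3 was again highest, and Cre-positive 2 overlapped the Cre-negative range. The group means were 16.9 ± 7.22 FPKM and 11.1 ± 2.60 FPKM (SD, n = 3 each), with a log2 fold change of -0.52 (SE 0.27; limma adjusted p = 0.998; exact two-sided permutation p = 0.2), and the estimate was -0.21 without Cre-negative 3.

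Hsp90aa1, the stress-responsive cytosolic HSP90 gene, stood at 114, 90.8 and 118 FPKM in the Cre-negative and at 77.9, 130 and 98.5 FPKM in the Cre-positive libraries. Here Cre-positive 2 was the highest library and Cre-negative 3 the next. The log2 fold change was -0.09 (SE 0.19), and leaving out Cre-positive 1 or Cre-positive 2 moved it to 0.08 or -0.28. Hsp90ab1, the constitutive paralog, stood at 470, 416 and 490 FPKM and at 369, 551 and 478 FPKM, with the same libraries highest.

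The mitochondrial chaperonin genes did not share this pattern. Hspd1, which encodes HSP60, stood at 157, 137 and 115 FPKM in the Cre-negative and at 104, 155 and 165 FPKM in the Cre-positive libraries. Hspe1, which encodes its HSP10 lid, stood at 125, 92.5 and 80.7 FPKM and at 79.4, 117 and 103 FPKM. Cre-negative 3, the library with the highest inducible HSP70, had the second lowest value of both genes, and Cre-positive 1 had the lowest. The log2 fold changes were 0.03 (SE 0.20) for Hspd1 and 0.01 (SE 0.20) for Hspe1. The ratio of Hspd1 to Hspe1, the genes that lie head to head, stayed between 1.25 and 1.60. The ratio of Hspd1 to Hspa1b was 4.71 in Cre-negative 3 and between 13.6 and 65.8 elsewhere. Hspd1, Hspe1 and Hsph1, the genes with 3 alternating units in their windows, did not share an order of libraries. A link between the units and the levels was not tested.

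**Figure D2:**
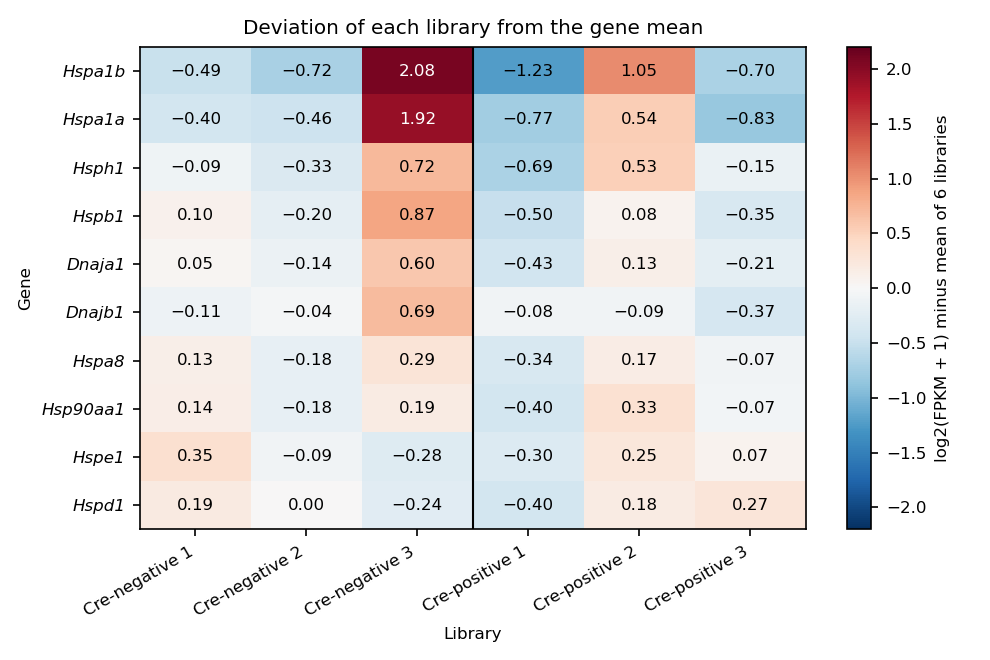
Deviation of each library (x axis) from the gene's mean over the 6 libraries on the log2(FPKM + 1) scale, for the 10 genes (y axis), with colour and printed value for the size. Cre-negative 3 deviates by 2.08 for Hspa1b and 1.92 for Hspa1a, and by -0.28 for Hspe1 and -0.24 for Hspd1.

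Cre-negative 3 was the highest library for 7 of the 10 members and Cre-positive 1 the lowest for 8. Over all genes tested, Cre-negative 3 was the highest for 11.1% and the lowest for 38.6%, and Cre-positive 1 was the lowest for 15.6%. Cre-negative 3 was at an extreme for several marker lists as well. The 5 adipocyte markers, of which 1, Lep, was below 1 FPKM in all libraries, summed to 62.1 to 105 FPKM in the Cre-negative and 52.9 to 64.1 FPKM in the Cre-positive libraries, with the highest sum in Cre-negative 3. Markers of cycling cells summed to 126 FPKM there, and to 152 to 236 FPKM in the other libraries. Markers of fibroblasts (205 FPKM), macrophages (138 FPKM), enteric neurons and glia (11.4 FPKM) and B cells (9.75 FPKM) were also lowest in Cre-negative 3. A low sum in this library was thus not particular to cycling cells, as 38.6% of all genes were lowest there. The 3 distal ileal genes named above were highest there too. The part of these differences in tissue makeup in the chaperone values was not tested.

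The classes of Xist level cut across the genotypes, and the members were also compared within them, a step chosen after the values were seen. Among the 3 libraries with high Xist, Hspa1b stood at 24.5 FPKM in the Cre-negative library and at 11.5 and 2.72 FPKM in the Cre-positive libraries. Among the 3 with low Xist it stood at 3.30 and 2.67 FPKM in the Cre-negative libraries and at 1.57 FPKM in the Cre-positive one. Every Cre-positive value lay below every Cre-negative value within both classes for 6 members, Hspa1a, Hspa1b, Hspa8, Hspb1, Dnaja1 and Hsph1, where 5.65% of all genes did so. With a term for the class in the limma fit, the log2 fold change was -1.27 (SE 0.50) for Hspa1b, -1.20 (SE 0.48) for Hspa1a, -0.73 (SE 0.19) for Hspb1, -0.51 (SE 0.14) for Dnaja1 and -0.51 (SE 0.19) for Hsph1. These 5 of the 10 members had an unadjusted p under 0.05 in this fit, against 3.57% of all genes and against 0 members without the term. Their limma adjusted p values were all 0.999 over all genes, so none passed the test in this fit either. The high-Xist class held a single Cre-negative library, Cre-negative 3, and the low-Xist class a single Cre-positive one, Cre-positive 1. These were the libraries that were most often highest and lowest for the members, so the class-adjusted values rest on them. All members named in these counts had Cre-negative 3 as their highest library. The counts therefore repeat 1 pattern of libraries and are not independent results.

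**Figure D3:**
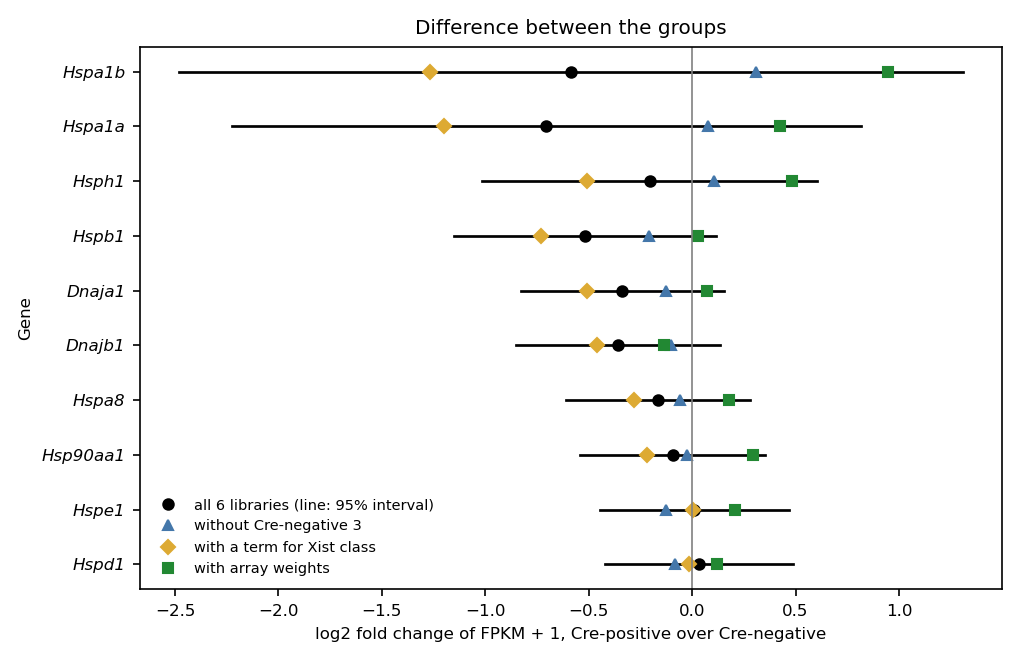
Log2 fold change of FPKM + 1 (x axis, Cre-positive over Cre-negative) for the 10 genes (y axis), with the 95% interval of the fit to all 6 libraries and the estimates without Cre-negative 3, with a term for Xist class and with array weights. All 10 intervals include 0, and the estimates for Hspa1b run from -1.27 to 0.95.

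Of 141 genes in 12 lists of other chaperones, their regulators and genes that respond to temperature, handling or time of day, 128 were tested and 0 passed the adjusted threshold. Hsf1, the main heat shock transcription factor gene, stood at 11.7, 11.8 and 9.31 FPKM in the Cre-negative and at 11.5, 14.5 and 13.1 FPKM in the Cre-positive libraries (log2 fold change 0.24, SE 0.13), and its lowest value was in Cre-negative 3. Hsf2 had a log2 fold change of -0.03. The transcript level of Hsf1 was thus not high in the library with the highest inducible HSP70, and the activity of HSF1, which is controlled on the protein, was not measured.

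Of 7 other HSP70 and HSP110 genes outside the endoplasmic reticulum, 5 estimates were above 0 and 2 below. Cre-negative 3 was the highest library for 1, Hspa4l, and the lowest for 3, against 11.1% and 38.6% of all genes. Hspa4l stood at 16.7, 13.1 and 21.7 FPKM and at 12.7, 18.9 and 15.1 FPKM. The groups did not overlap for 1 of the 7, Hspa2, against 8.37% of all genes. Among 15 genes of the HSP90 system, 7 estimates were above 0 and 8 below, and 0 had an unadjusted p under 0.05. Chordc1, a co-chaperone of HSP90, stood at 29.2, 26.5 and 46.4 FPKM and at 21.5, 38.6 and 28.1 FPKM, with Cre-negative 3 and Cre-positive 2 highest as for the inducible members. Ahsa2 of this list, and Hspa4l, Dnaja4 and Dnajb2 of the other lists, had the same libraries highest. Cre-positive 1 was the lowest library for 7 of the 15, against 15.6% of all genes. Tomm34, a co-chaperone of mitochondrial import, had the lowest unadjusted p of this list (log2 fold change 0.22, SE 0.11). Of 11 exchange factors and adaptors of HSP70, 9 estimates were below 0 and 0 had an unadjusted p under 0.05. Bag3, the stress-induced exchange factor of protein quality control, stood at 15.3, 14.6 and 19.1 FPKM and at 11.9, 15.6 and 16.2 FPKM.

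The other small heat shock protein genes had 5 of 5 estimates below 0, with a median log2 fold change of -0.22. Hspb11, an intraflagellar transport protein despite its name, stood at 8.97, 7.09 and 11.0 FPKM in the Cre-negative and at 6.82, 5.0 and 6.0 FPKM in the Cre-positive libraries, without overlap (log2 fold change -0.52, SE 0.17, limma adjusted p = 0.998). Cryab, which encodes the muscle-rich alpha B crystallin, stood at 6.01, 5.58 and 6.44 FPKM and at 4.77, 4.95 and 5.31 FPKM, also without overlap (-0.22, SE 0.10). With Hspb7, at 1.83, 1.87 and 2.66 FPKM and at 1.29, 1.57 and 1.80 FPKM, the groups did not overlap for 3 of the 5 genes, where 2.6% of all genes were lower in this way. Of 20 other J protein genes, the groups did not overlap for 1, against 8.37% of all genes in either direction. This was Hscb, which serves iron-sulfur cluster assembly and was higher in all Cre-positive libraries (log2 fold change 0.32, SE 0.10). Dnajb4 had an estimate of -0.35 (SE 0.14) with overlapping groups. None of these passed the adjusted threshold.

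The mitochondrial and chaperonin lists ran opposite to the inducible genes in Cre-negative 3. Hspa9, the mitochondrial HSP70 gene, stood at 124, 111 and 85.1 FPKM in the Cre-negative and at 88.8, 119 and 133 FPKM in the Cre-positive libraries. Cre-negative 3 was the lowest library for 11 of 12 genes of mitochondrial proteolysis and import and for 9 of 13 genes of the cytosolic TRiC chaperonin and prefoldin, where 38.6% of all genes were lowest there. Between the groups, the median log2 fold changes of these lists were 0.03 and -0.01. Chaperones of the endoplasmic reticulum had 8 of 12 estimates above 0 and a median of 0.03. Hspa5, which encodes BiP, stood at 325, 263 and 299 FPKM and at 272, 317 and 313 FPKM, with no marked value in Cre-negative 3. Dnajb9, with the lowest unadjusted p of this list (log2 fold change -0.23, SE 0.14), was highest in that library. It stood at 32.0, 28.2 and 41.9 FPKM and at 30.4, 27.6 and 27.7 FPKM. Cre-negative 3 was the highest library for 1 of the 12 genes and the lowest for 3.

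**Figure D4:**
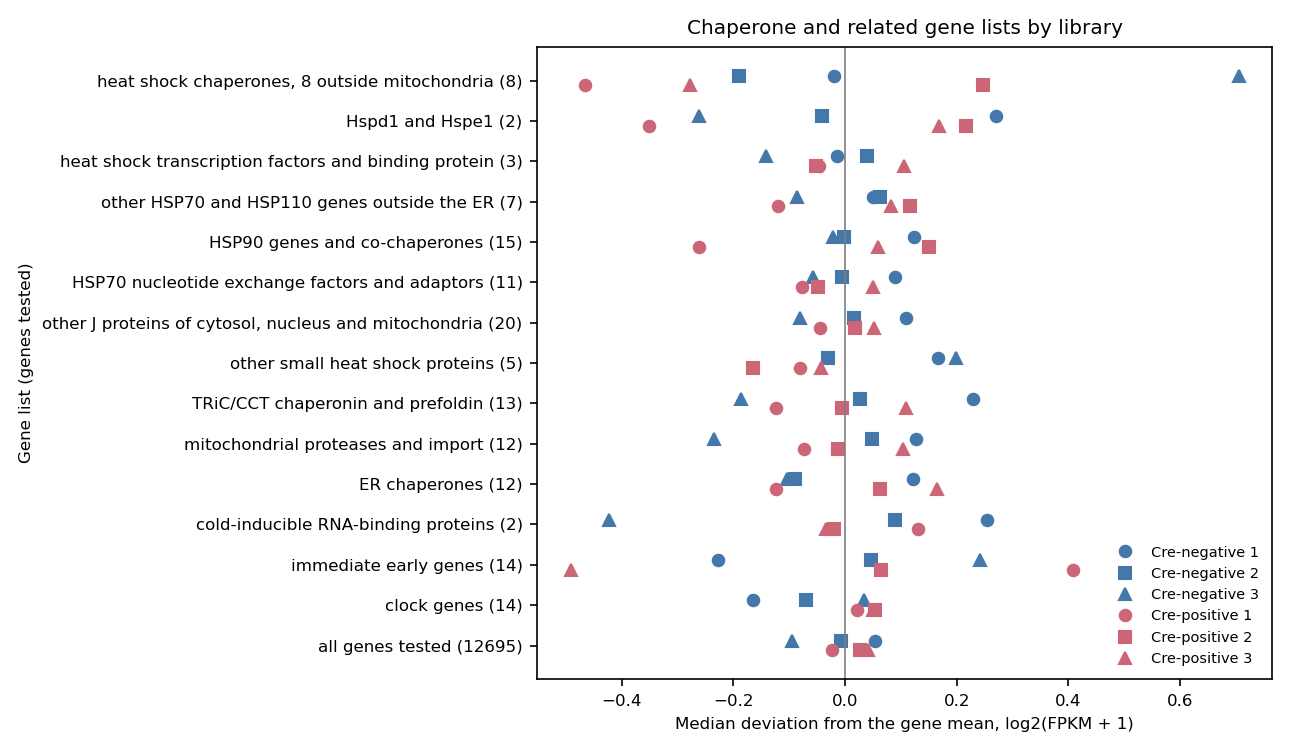
Median deviation from the gene mean on the log2(FPKM + 1) scale (x axis) in each library, for the 8 chaperone genes outside mitochondria, the mitochondrial pair Hspd1 and Hspe1, the related gene lists and all genes tested (y axis, with the number of genes). Cre-negative 3 lies at 0.70 for the 8 genes, at -0.24 for mitochondrial proteases and import and at -0.42 for the cold-inducible genes.

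Genes that respond to temperature or handling gave further values beside these. The cold-inducible RNA-binding protein genes Cirbp and Rbm3 were both lowest in Cre-negative 3, as were 38.6% of all genes tested. Cirbp stood at 12.9, 12.7 and 8.15 FPKM in the Cre-negative and at 13.1, 11.6 and 10.3 FPKM in the Cre-positive libraries, and Rbm3 at 93.5, 75.2 and 55.3 FPKM and at 77.4, 70.2 and 76.8 FPKM. Immediate early genes, which are transcribed within minutes of a stimulus, were ordered otherwise. Cre-positive 1, the lowest library for most members, was the highest for 8 of 14, against 12.5% of all genes. Cre-positive 3 was the lowest for 9, against 13.1% of all genes. Among 14 clock genes, the groups did not overlap for 7, where 8.37% of all genes showed no overlap in either direction and 0 of the 10 members did. The 7 were Dbp (log2 fold change 0.87), Tef (0.54), Per3 (0.51), Hlf (0.36), Nr1d2 (0.20), Arntl (-0.29) and Nfil3 (-0.60), and none passed the adjusted threshold. The part of temperature, handling or time of day in the chaperone values was not tested.

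The genes whose library profile was most like the mean profile of Hspa1a, Hspa1b, Dnajb1 and Hsph1 were Foxo6, Raver1-fdx1l, Il33, Retn and Chordc1, by the root mean square difference of centred log2(FPKM + 1) values over the 6 libraries (0.35 to 0.39). Il33, which encodes an alarmin cytokine, stood at 8.71, 7.96 and 16.4 FPKM in the Cre-negative and at 7.75, 10.2 and 8.13 FPKM in the Cre-positive libraries. Foxo6 and the readthrough locus Raver1-fdx1l were at no more than 4.05 FPKM and 2.49 FPKM, and Retn, an adipocyte hormone gene, was highest in Cre-negative 3 at 10.4 FPKM. Of members outside the profile, Hspb1 ranked 3rd, Dnaja1 11th, Hspa8 76th and Hsp90aa1 117th of 12695 genes, while Hspe1 and Hspd1 ranked 8115th and 8219th. The clock gene Per2, named after its values were seen, ranked 14th and stood at 3.19, 3.94 and 10.1 FPKM and at 4.85, 8.93 and 6.27 FPKM. With 6 libraries and 1 library dominating the profile, this order describes these samples alone.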

How the data were processed

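The authors deposited 1 table of FPKM values per gene and library. The submitters' processing notes name Trimmomatic, STAR, Cufflinks and Cuffnorm and the builds GRCm38 and mm10. The sources used here give no versions, settings, scaling between libraries or handling of fragments that match several genes. Groups and columns were matched through the sample titles. No model for counts was applied to these normalized values. The 12695 genes whose mean was 1 FPKM or more were tested on the log2(FPKM + 1) scale, which understates changes of low genes, with limma's two-sided moderated test with an intensity trend and Benjamini-Hochberg adjustment over all genes (threshold 0.05). Single values were compared with exact permutation tests.

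The labels call the samples separate mice. Depth was estimated from steps in low values, as the best fit within a set range of depths. At that fit, 71.6% to 77.4% of these values lay within 0.1 fragment of a whole number, where 20% would by even spread. Whole multiples of a depth fit such steps too, so the fragment numbers are approximate. Depth limits the precision of low genes. On simulated data (12695 genes), 38.6% of simulated 1.5-fold changes passed the test, as did 77.0% of 2-fold and 94.8% of 4-fold changes. The changed genes were drawn at random from all genes, with independent noise at each gene's own spread. The median within-group SD was 0.33 for the 10 members and 0.16 for all genes. These rates therefore do not hold for the members.

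The members and the 12 pathway and 10 marker lists were chosen with earlier results of these data known. Named genes were the members, up to 3 genes with the lowest p and set genes by role of each list, and the 5 most alike in profile. Alternatives were other pseudocounts, filters and scalings, limma without trend, robust or with array weights, the replicate number as a block and each library left out. Added later were a term for Xist class, leaving out 2 libraries together and the sum of Hspa1a and Hspa1b. R 4.3.3, limma 3.58.1 and Python 3.11.15 were used.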

Additional observations from a re-analysis of the deposited data

How the results depend on the processing

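No alternative brought a chaperone gene past the adjusted threshold. Over all genes, the count of 0 became 2 with a pseudocount of 0.1, of 5 and, separately, on equal-sum rescaling. It became 24 under array weighting, 3 without Cre-negative 3 and Cre-positive 2 together, and 0 to 41 when single libraries were left out, 41 of them without Cre-positive 3. Rescaling to an equal sum put 83.2% of all genes above 0, against 58.4% as deposited, 49.5% by median-of-ratios factors and 50.4% by quantiles.

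The median log2 fold change of the 10 genes (-0.27) was 0.19 with array weights, which gave Cre-negative 2 a weight of 5.90 and Cre-negative 3 one of 0.39, and -0.48 with a term for Xist class. It ran from -0.45 to -0.07 without single libraries. With array weights the estimates of 7 genes turned positive: Hspa1a 0.42, Hspa1b 0.95, Hspa8 0.18, Hspb1 0.029, Dnaja1 0.072, Hsph1 0.48 and Hsp90aa1 0.29. Hsp90aa1 was 0.021 after rescaling to an equal sum. Hspd1 and Hspe1, at 0.03 and 0.01 over all libraries, were -0.0016 and -0.023 under median-of-ratios factors. They were -0.16 and -0.25 without Cre-negative 3 and Cre-positive 2, and Hspd1 was -0.014 with the Xist term. Without single libraries, ranges were -1.15 to 0.077 for Hspa1a, -1.26 to 0.31 for Hspa1b, -0.52 to 0.10 for Hsph1, -0.28 to 0.083 for Hsp90aa1, -0.092 to 0.24 for Hspd1 and -0.13 to 0.19 for Hspe1. For Hspa8 the range was -0.30 to -0.03 and for Dnaja1 -0.49 to -0.12. Of 142 recomputed estimates of single genes that could change, 117 kept their direction and 25 did not, and the cause was not tested. A further 49, from other filters, limma without trend or robust and the block, cannot move by construction. The deviations of same-numbered libraries from their group means were weakly correlated (-0.13, 0.03 and -0.11). With 3 libraries per group the deviations are tied to each other, so these values cannot show whether the numbers pair the animals. The replicate block cannot move a fold change in this balanced design and brought the count of genes past the threshold to 1. Hspa1a values rest on an estimated 16 to 265 fragments, and their split from Hspa1b is uncertain.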
